A study of Homo sapiens with 88 samples.

Results

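COLO668 is an established human small cell lung cancer (SCLC) line, and the data below describe how its gene expression changed under a treatment that the sample titles call 552A. Of 88 arrays of 9 SCLC lines, the 12 whose title starts with COLO668 were used: 6 arrays of 552A-treated cells, 2 each at days 2, 4 and 7, and 6 arrays of cells given the vehicle DMSO, 2 each on the same days. Cells of both arms grew in RPMI with 10% FBS and had multiple passages. The treatment protocol names DMSO and 1 µM GSK2879552, which inhibits the demethylase LSD1, but whether 552A is short for it is not stated. The series design asks how LSD1 inhibition changes expression in SCLC lines that are sensitive or resistant to its effect on growth, and no label places COLO668 among either. SHP-77, NCI-H526, NCI-H510, NCI-H146 and NCI-H446, with 12 to 14 arrays each of 552A and DMSO on the same days, are the lines COLO668 is set against.

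LSD1, encoded by KDM1A, removes methyl groups from histone H3 and acts in complexes with CoREST proteins and histone deacetylases. Repressors with a SNAG domain, among them GFI1, GFI1B, INSM1 and the SNAI proteins, bring the complex to their target genes. SCLC cells usually carry neuroendocrine features, such as secretory granules, neuropeptides and synaptic vesicle proteins, while Notch activity and mesenchymal genes are known to mark cells that have left that state.

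A level is the log2 signal of an array, and a change is 552A minus DMSO on that scale, so that 1 is a doubling. The change over all days is the mean of the 3 within-day differences. Tests came from limma over all 88 arrays, and a gene was called at an adjusted p below 0.05 (Benjamini-Hochberg over 15352 genes). SE is the standard error of that fit, and "rose" and "fell" are used of called genes only. The labels do not say whether the 2 arrays of a group stem from separate cultures, so p-values measure only array-to-array spread, possibly technical, pooled over all lines. A level below 6.09 is called dim, and a change that starts from a dim arm may be a lower limit. In bulk RNA, fewer cells of a kind and less RNA per cell cannot be told apart.

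Array medians lay between 7.36 and 7.46 over the series. The ACTB 3' minus 5' control signal, which is known to grow as RNA degrades, was above the limit of 0.8 on 2 COLO668 arrays, both of day 7: 1.34 on 552A replicate 2 and 1.11 on DMSO replicate 1. The other 10 COLO668 arrays lay between 0.15 and 0.73, against a median of -0.02 over the arrays of the other lines. The GAPDH 3' minus 5' signal was 0.62 on 552A day 7 replicate 2 and 0.18 on DMSO day 7 replicate 1, and at most 0.19 on the other COLO668 arrays, so that this second sign stood out on the 552A array alone. The counts below use all arrays unless stated, and only some of them are also given without those 2 arrays.

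The arrays carried markers of neuroendocrine SCLC, at levels that were high among the lines for some and low for others. On 552A and DMSO arrays, CHGA, the granule protein chromogranin A, averaged 13.40 ± 0.07 and 13.57 ± 0.01 (SD, n = 6 each), and its DMSO level ranked 1 of 9 lines. INSM1 averaged 13.39 ± 0.17 and 13.05 ± 0.17 and ranked 8 of 9 by its DMSO level. SYP and NCAM1 ranked 7, and ENO2, neuron-specific enolase, ranked 9, with 10.33 ± 0.32 and 10.51 ± 0.23 in those arms. MYCL, the MYC family gene amplified in some SCLC tumours, averaged 14.40 ± 0.11 and 14.44 ± 0.13 in the same arms. POU2F3, the factor of tuft cell SCLC, was dim in both arms at 4.60. NEUROD1 was not analysed here. Among 24 markers of other cell types (immune cells, fibroblasts and endothelium) the mean level per array ran from 6.47 to 6.57 under 552A and from 6.54 to 6.66 under DMSO, 6 to 9 of the 24 were dim on each array, and PTPRC, the leukocyte marker CD45, was dim in both arms. Of the 16 such markers tested, KDR, the endothelial VEGF receptor, rose by 0.56 from a dim DMSO arm (-0.22, 0.33 and 1.56 at days 2, 4 and 7), and CD3D fell by 0.18. Without the 2 arrays of raised ACTB signal CD3D also changed by -0.18 (adjusted p = 0.088), and 14 of 28 alternatives ended its call. The part of such cells in the results below was not tested. KDM1A itself averaged 12.31 ± 0.10 under 552A and 12.22 ± 0.05 under DMSO, a change of 0.09 (SE 0.05, adjusted p = 0.21).

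Averaged over the days, 1895 genes rose and 1353 fell in 552A-treated COLO668 cells, which is 12.3% and 8.81% of the genes tested. Most changes were small: 103 of those that rose and 14 of those that fell changed by more than 1. The largest rise was that of CYP4X1, an orphan cytochrome P450 known to oxidise the endocannabinoid anandamide, at 14.9-fold. The largest fall was that of GRP, the gastrin-releasing peptide that acts as a growth factor in SCLC, at 3.72-fold. All 6 552A arrays lay above all 6 DMSO arrays for 492 genes (3.2%) and below them for 317 genes (2.06%). At day 7 alone 15.4% of all genes rose and 11.2% fell. Over days 2 and 4 alone, 699 of the 15352 genes rose and 457 fell. List counts for those days below are to be set beside these.

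The promoters of both, and of LBH and SST, which are described next, are shown because these genes lead the rises (CYP4X1 and LBH) and the falls among neuropeptide genes (GRP and SST). Each is 250 bases before and 50 bases from the transcription start in RefSeq's annotation of GRCh38.p14, and capitals mark the searched E-boxes.
CYP4X1: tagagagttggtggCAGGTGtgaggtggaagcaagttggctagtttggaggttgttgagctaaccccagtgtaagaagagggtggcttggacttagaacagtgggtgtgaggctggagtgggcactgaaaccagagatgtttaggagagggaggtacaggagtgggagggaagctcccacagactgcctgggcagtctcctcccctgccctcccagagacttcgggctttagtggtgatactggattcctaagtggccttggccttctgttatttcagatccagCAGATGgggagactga
LBH: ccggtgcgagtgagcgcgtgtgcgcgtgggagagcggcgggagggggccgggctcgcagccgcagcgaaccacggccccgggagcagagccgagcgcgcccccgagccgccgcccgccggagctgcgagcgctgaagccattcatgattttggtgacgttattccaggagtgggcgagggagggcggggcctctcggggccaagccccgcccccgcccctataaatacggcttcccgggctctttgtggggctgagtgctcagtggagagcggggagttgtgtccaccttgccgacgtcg
GRP: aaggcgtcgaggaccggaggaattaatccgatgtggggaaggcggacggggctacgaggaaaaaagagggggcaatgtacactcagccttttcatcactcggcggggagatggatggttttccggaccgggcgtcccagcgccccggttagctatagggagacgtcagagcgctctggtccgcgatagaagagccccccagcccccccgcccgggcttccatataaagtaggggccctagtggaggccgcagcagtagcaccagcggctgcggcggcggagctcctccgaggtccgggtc
SST: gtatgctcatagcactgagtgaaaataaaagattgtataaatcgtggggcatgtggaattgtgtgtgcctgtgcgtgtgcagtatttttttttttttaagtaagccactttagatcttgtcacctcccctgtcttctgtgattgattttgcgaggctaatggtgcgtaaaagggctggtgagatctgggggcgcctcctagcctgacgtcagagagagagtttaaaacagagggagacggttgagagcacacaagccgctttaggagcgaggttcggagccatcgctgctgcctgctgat
CYP4X1 is at chr1:46961114-46961413 and LBH at chr2:30231284-30231583, both on the plus strand. GRP is at chr18:59219908-59220207 on the plus strand and SST at chr3:187670345-187670644 on the minus strand. The CYP4X1 window holds CAGGTG, the E-box bound by ZEB and SNAI repressors, and CAGATG, an E-box of NEUROD1. The windows of LBH, GRP and SST hold none of the letters searched.

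Over the 28 genes named for the largest changes, 19 had a RefSeq window, 10 that rose and 9 that fell. CAGATG or CATCTG was in 3 of the 10 and 1 of the 9, against 10.2% of the windows of 12236 tested genes and 14.8% of all 27305 windows. CAGGTG or CACCTG was in 2 of the 10 and 3 of the 9, against 19.2% and 20.6%. The GFI1 sites AAATCACT, AAATCTCT and AAATCACA, on either strand, were in 0 of the 10 and in 1 of the 9, that of B3GALT2, against 1.7% and 3.07%. Windows of the genes that rose held a median of 13 CpG, those of the genes that fell 27, and those of all tested genes 25.

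CYP4X1 read 8.0 and 7.97 at day 2, 9.42 and 9.30 at day 4, and 9.74 and 10.02 at day 7 on 552A arrays. On DMSO arrays it read 5.07 and 4.79 at day 2, 5.20 and 5.71 at day 4, and 5.0 and 5.30 at day 7. The DMSO arm was dim on every array, no 552A array came near it, and the change was 3.90 (SE 0.12, adjusted p = 1.4e-32). LBH, a transcription cofactor and Wnt target, read 8.53 and 8.72, then 9.32 and 9.38, then 9.74 and 9.88 at days 2, 4 and 7 on 552A arrays. On DMSO arrays LBH read 6.67 and 6.84, then 6.40 and 7.11, then 6.92 and 7.13 on the same days. Its arms did not overlap and the change was 2.41 (SE 0.12, adjusted p = 3.9e-23). IL1R1, the receptor for interleukin-1, read 8.02 and 7.97, then 8.29 and 8.44, then 9.52 and 9.92 on 552A arrays, against 6.28 and 6.2, then 6.48 and 6.36, then 6.47 and 6.74 on DMSO arrays. Its 552A arrays stood apart at each day, the day 7 arrays furthest, with a change of 2.27 (SE 0.09, adjusted p = 1.3e-26).

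The other genes with the largest rises were of mixed kinds. SLC44A5, a choline transporter-like protein, had a lowest, median and highest level of 8.13, 8.71 and 9.85 under 552A and 6.12, 6.44 and 7.17 under DMSO. HOPX, a small homeodomain protein that does not bind DNA, averaged 9.91 ± 0.58 under 552A and 7.78 ± 0.21 under DMSO (SD over 6 arrays of 3 days). EFEMP1, the matrix glycoprotein fibulin-3, ran from 8.28 through a median of 9.07 to 9.12 under 552A and from 6.36 through 6.75 to 6.97 under DMSO. For none of the 3 did the arms overlap, and the changes were 2.28, 2.14 and 2.19. Counts of probe sets that moved the same way are of signs, with no test of each. For EFEMP1, HOPX, ADGRG6 and ST6GALNAC5 they were 2 of 3. The probe sets of SLC44A5 changed by 0.19 to 2.28 and those of IL1R1 by 0.33 to 2.27.

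KREMEN1, which binds Dickkopf proteins to remove a Wnt coreceptor, changed by 1.82, and its 5 probe sets changed by 0.00055 to 1.82, the lowest being close to 0. ADGRG6, an adhesion receptor that mice need for myelination by Schwann cells, changed by 2.03. TNFRSF10B, a death receptor for TRAIL, had 8.14, 8.78 and 9.29 as its lowest, median and highest level under 552A and 7.07, 7.15 and 7.21 under DMSO, a change of 1.63. Its 4 probe sets changed by 0.013 to 1.63, the lowest again close to 0. LRRN4 (2.07), UMODL1 (1.66), the sialyltransferase gene ST6GALNAC5 (1.63, from a dim DMSO arm), the cortactin-binding CTTNBP2 (1.61) and THSD7B (1.89), a membrane protein with thrombospondin repeats, complete the 14 largest rises. All 14 were called on each of days 2, 4 and 7, and in 13 of them the arms did not overlap; the exception was THSD7B, which rose late.

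**Figure D1:**
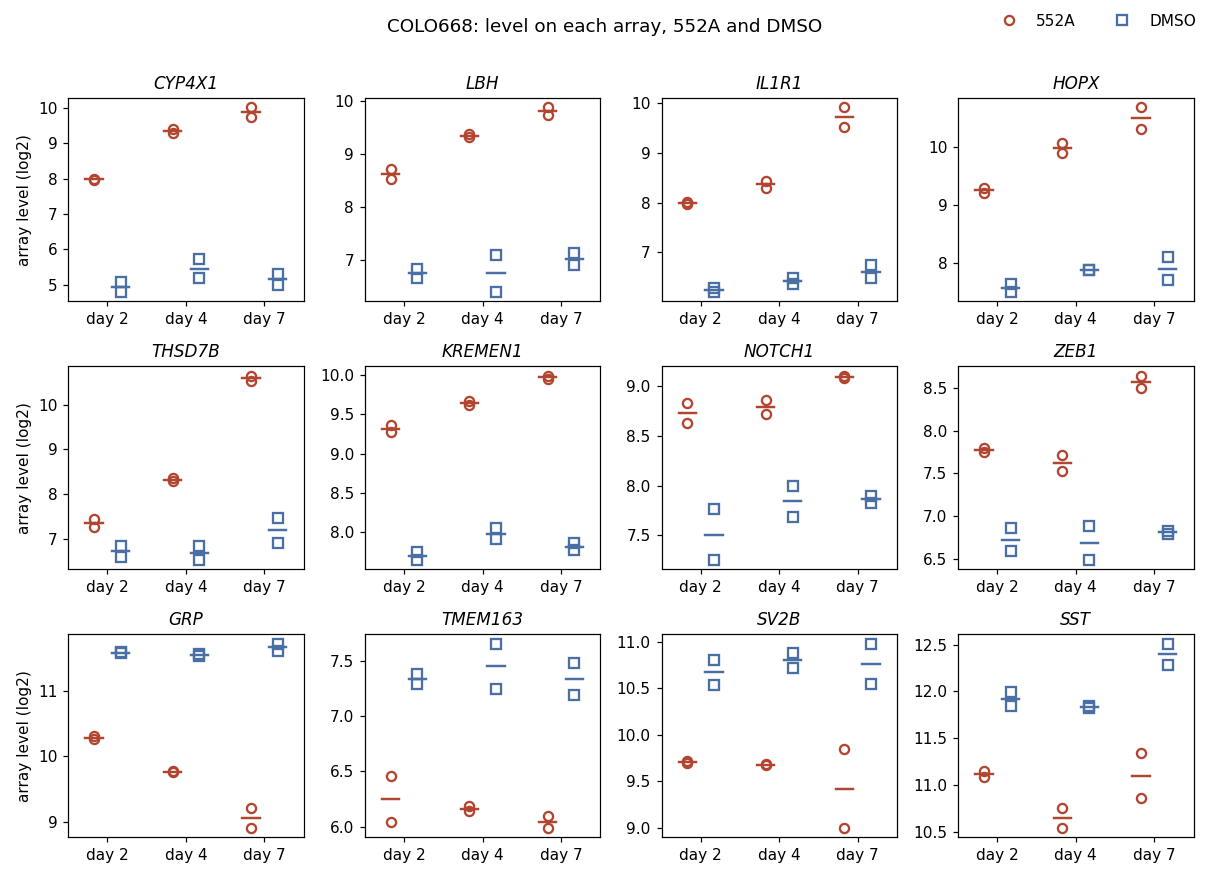
Log2 level on each of the 12 COLO668 arrays for 12 genes, with days on the horizontal axis, circles for 552A, squares for DMSO and short lines for the mean of 2 arrays; the vertical scale differs between genes. The 552A arrays of CYP4X1 lie between 7.97 and 10.02 and its DMSO arrays between 4.79 and 5.71, while GRP runs the other way, from 8.90 to 10.30 under 552A and from 11.52 to 11.72 under DMSO.

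GRP read 10.30 and 10.26 at day 2, 9.76 and 9.76 at day 4, and 9.21 and 8.90 at day 7 on 552A arrays. On DMSO arrays it read 11.57 and 11.59, then 11.55 and 11.52, then 11.61 and 11.72 on the same days. The DMSO arrays hardly varied, every 552A array lay below them, and the change was -1.89 (SE 0.19, adjusted p = 7.4e-12). SST, the inhibitory peptide somatostatin, read 11.15 and 11.08, then 10.76 and 10.54, then 11.34 and 10.85 on 552A arrays, against 11.99 and 11.84, then 11.84 and 11.83, then 12.51 and 12.28 on DMSO arrays. Its arms did not overlap, and the change was -1.10 (SE 0.12, adjusted p = 1.5e-10). TMEM163, a vesicular zinc transporter, had a lowest, median and highest level of 5.99, 6.12 and 6.46 under 552A and 7.19, 7.34 and 7.66 under DMSO, a change of -1.22 that leaves it near the dim limit. SV2B, a synaptic vesicle glycoprotein, ran from 9.0 through 9.69 to 9.84 under 552A and from 10.54 through 10.76 to 10.98 under DMSO, a change of -1.15 with 3 of 3 probe sets moving that way.

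Several secreted or surface proteins were among the other genes that fell. TFF1, a trefoil peptide of mucous epithelia, fell by 1.12, and LAMA1, a laminin chain of basement membranes, fell by 1.04. HSD17B2, which turns oestradiol into oestrone, and ROR2, a receptor for WNT5A, fell by 1.10 and 1.08. OR51E2, an olfactory receptor, changed by -1.08, and TNFRSF11A, the receptor RANK for the bone factor RANKL, by -1.0. SGSM1 (-1.22), B3GALT2 (-1.10, with a dim 552A arm), LRRC31 (-1.08) and the adaptor LAT2 (-1.0) make up the 14 largest falls. The probe sets of SGSM1 changed by -1.22 to -0.13, those of LAT2 by -1.0 to -0.07 and those of SV2B by -1.15 to -0.16. Of the 14, 10 were called at day 2, 13 at day 4 and 14 at day 7. In 12 the arms did not overlap, against 2.06% of all tested genes, B3GALT2 and OR51E2 being the exceptions. The 14 falls were picked in the same way as the rises, so these counts are partly built in.

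Genes of the neuroendocrine program fell more often than they rose. Of 35 tested neuroendocrine markers, 16 fell (45.7%, against 8.81% of all genes) and 2 rose, with a median change of -0.17 against -0.02 over all genes. By role, 5 of 11 secretory granule genes, 4 of 13 peptide genes, 1 of 3 processing genes and 6 of 8 surface and enzyme genes fell. SYT1, the calcium sensor of vesicle release, had 9.29, 9.48 and 9.73 as its lowest, median and highest level under 552A and 9.94, 10.10 and 10.30 under DMSO, a change of -0.62 (SE 0.06, adjusted p = 3.5e-13). RET, a receptor kinase for the GDNF family, ran from 10.12 to 10.70 under 552A and from 10.97 to 11.31 under DMSO, a change of -0.66. CHGA fell by 0.17 with no overlap between the arms (13.29 to 13.48 under 552A and 13.56 to 13.59 under DMSO), but it was called on no single day. SYP, the vesicle protein synaptophysin, changed by -0.23 (adjusted p = 0.013) with all arrays and by -0.17 (adjusted p = 0.14) without the 2 of raised ACTB signal. INSM1 moved against the list and rose by 0.34 (SE 0.06, adjusted p = 2.4e-05), though of the single days it was called at day 7 alone. Without the 2 arrays of raised ACTB signal, 14 of the 35 fell and 1 rose, and over days 2 and 4 alone, with 8 arrays, 9 fell.

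Genes of the synaptic vesicle list fell more often than they rose. Of 45 tested members 13 fell (28.9%, against 8.81% of all genes) and 4 rose (8.89%, against 12.3%), with a median of -0.12. At day 7 alone, however, 7 fell and 8 rose, where 11.2% of all genes fell and 15.4% rose. Besides SV2B and SYT1, the members that fell included RAB3B, a GTPase of secretory vesicles, at -0.78, SLC18A1, a vesicular monoamine transporter, at -0.63, and SYT11 at -0.42. RAB3B ran from 8.34 through a median of 9.72 to 9.92 under 552A and from 10.00 through 10.31 to 10.39 under DMSO. Those that rose included RAB27B, a GTPase of granule docking, at 0.57 and CPLX2, a complexin that controls vesicle fusion, at 0.55. SLC18A2, the other vesicular monoamine transporter, changed by 0.31 over the days but by -0.13, 0.05 and 1.01 at days 2, 4 and 7, and it was called at day 7 alone.

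**Figure D2:**
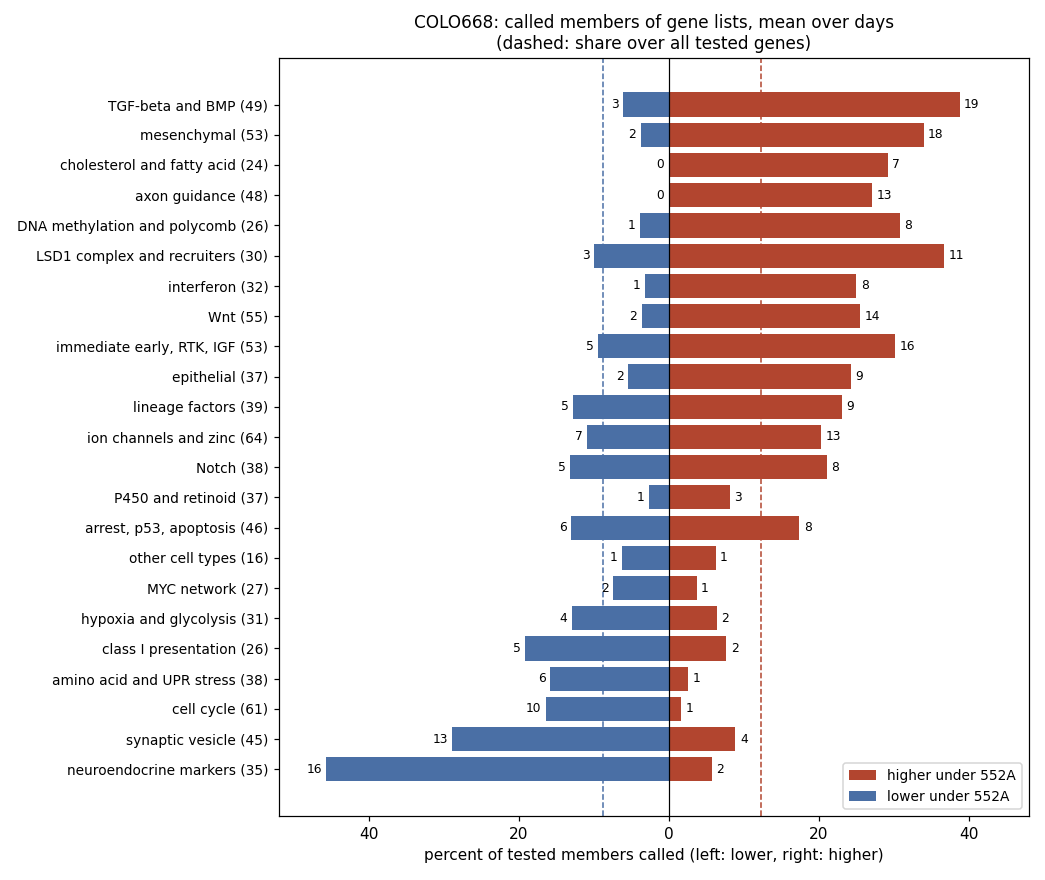
Percent of the tested members of 23 gene lists that rose (right) or fell (left) in COLO668 over the mean of the days, with the number of members beside each bar and the number tested in brackets; dashed lines give 12.3% and 8.81%, the shares over all tested genes. Neuroendocrine markers (16 of 35 fell) and TGF-beta and BMP genes (19 of 49 rose) stand at the ends.

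Among Notch pathway genes the receptors NOTCH1 and NOTCH2 rose and more ligands fell than rose. NOTCH1 read 8.63 and 8.83, then 8.86 and 8.73, then 9.11 and 9.09 on 552A arrays, against 7.76 and 7.25, then 8.0 and 7.68, then 7.83 and 7.90 on DMSO arrays. The arms did not overlap, with a change of 1.14 (SE 0.10, adjusted p = 7.6e-14), though only 1 of 2 NOTCH1 probe sets moved that way. NOTCH2 ran from 9.51 through a median of 10.05 to 10.57 under 552A and from 8.65 through 8.95 to 9.12 under DMSO, a change of 1.08 with 4 of 4 probe sets moving that way. HES1, a repressor that Notch induces, ran from 10.63 through 10.88 to 12.28 under 552A and from 9.85 through 10.20 to 10.51 under DMSO, a change of 1.00, and HES4 changed by 0.55. DLL3, an inhibitory ligand and SCLC surface marker, fell by 0.59 and DNER, a neuronal ligand, by 0.57, whereas DLL1 rose by 0.45. By role, 2 of 4 receptors and 3 of 9 targets rose, and 1 of 8 ligands rose and 4 fell. In all, 8 of 38 members rose (21.1%, against 12.3% of all genes) and 5 fell (13.2%, against 8.81%), with a median of 0.02.

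Of 39 lineage factors 9 rose (23.1%, against 12.3% of all genes) and 5 fell (12.8%, against 8.81%). ID4 and ID1, which block basic helix-loop-helix factors, rose by 1.12 and 0.98. ID1 ran from 8.08 through a median of 8.62 to 9.61 under 552A and from 7.54 through 7.71 to 8.27 under DMSO, so that its arms overlapped slightly. SOX11 and SOX4, related neural factors, rose by 0.71 and 0.55. ELAVL4, a neuronal RNA-binding protein, fell by 0.53, and ST18, a zinc finger factor of endocrine cells, fell by 0.52. REST, the repressor of neuronal genes, changed by 0.06 (adjusted p = 0.70). Over 28 alternatives its change ran from -0.14 to 0.66, and 1 of them called it. Without the arrays of raised ACTB signal 9 rose and 5 fell, and without 552A day 7 replicate 1 or DMSO day 2 replicate 1, 3 fell.

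Of 30 genes for subunits and recruiters of the LSD1 complex 11 rose (36.7%, against 12.3% of all genes) and 3 fell (10%, near the 8.81% of all genes). The subunit HMG20B fell by 0.33, with 3 of 3 probe sets moving that way. RCOR1, which encodes CoREST, changed by 0.21 (adjusted p = 0.021), with 1 of 2 probe sets moving that way, and by 0.18 (adjusted p = 0.093) without the arrays of raised ACTB signal. GFI1 and GFI1B changed by 0.14 and -0.10 (adjusted p = 0.21 and 0.28). ZNF217, a zinc finger partner of the complex, rose by 1.19 from a dim DMSO arm. Of 6 tested myeloid target genes of GFI1, 1 rose, LY96, at levels that were dim in both arms.

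ZEB1, a recruiter and a driver of the mesenchymal state, read 7.75 and 7.80, then 7.71 and 7.52, then 8.64 and 8.49 on 552A arrays, against 6.59 and 6.86, then 6.89 and 6.48, then 6.79 and 6.83 on DMSO arrays. The arms did not overlap, the change was 1.25 (SE 0.08, adjusted p = 1.3e-17), and 4 of 4 probe sets moved that way. SNAI2, a related repressor, rose by 0.98. Of 53 mesenchymal genes 18 rose (34%, against 12.3% of all genes) and 2 fell (3.77%, against 8.81%), with a median change of 0.12. COL4A2, a basement membrane collagen, ran from 8.71 through a median of 9.07 to 9.34 under 552A and from 7.39 through 7.53 to 7.67 under DMSO, a change of 1.53. VIM, the intermediate filament vimentin, changed by 0.60, of which 0.32, 0.32 and 1.18 at days 2, 4 and 7 and called at day 7 alone; 1 of 2 VIM probe sets moved that way. YAP1 changed by 0.12 (adjusted p = 0.52) and PTPN14, a phosphatase that binds YAP, by 0.73. PTPN14 moved by -0.06 at day 2, where its arms overlapped, and by 1.22 and 1.03 at days 4 and 7. Without the arrays of raised ACTB signal, 14 mesenchymal genes rose and 2 fell, and 9 rose over days 2 and 4 alone.

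Some epithelial regulators rose beside these mesenchymal genes. Of 37 epithelial genes 9 rose (24.3%, against 12.3% of all genes) and 2 fell, with a median of 0.00, and of the 13 that control epithelial state 4 rose. OVOL1, a repressor that keeps cells epithelial, ran from 8.32 through a median of 8.53 to 8.89 under 552A and from 7.25 through 7.41 to 7.52 under DMSO, a change of 1.20. GRHL2, a factor for junction genes, rose by 0.73 and OVOL2 by 0.63, whereas the junction genes CLDN7 and DSP fell by 0.41 and 0.34.

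Called genes of 3 signalling lists mostly rose, where 12.3% of all genes rose and 8.81% fell. Of 49 TGF-beta and BMP genes 19 rose (38.8%) and 3 fell, with a median of 0.10; by role, 6 of 10 receptors, 4 of 12 signal proteins, 4 of 10 antagonists and 2 of 12 ligands rose. SMAD9, a BMP signal transducer, rose by 0.81, and NOG, the BMP antagonist noggin, by 1.18 from a dim DMSO arm. Of the single days NOG was called at day 7 alone. The ligands TGFB3 and TGFB2 changed by -0.35 each. Of 55 Wnt genes 14 rose (25.5%) and 2 fell, and of its 12 antagonists 5 rose, KREMEN1 the most and DKK3 by 0.75, while 0 of 11 ligands were called by limma (1 rose and 1 fell at an unadjusted p below 0.05). LGR5, a receptor for R-spondins, rose by 0.67. Of 48 axon guidance genes 13 rose (27.1%) and 0 fell by the limma test, against 15 and 3 at an unadjusted p below 0.05, and 11 rose without the arrays of raised ACTB signal. EFNB2, the ligand ephrin-B2, ran from 10.45 through a median of 10.85 to 11.85 under 552A and from 9.60 through 9.81 to 9.87 under DMSO, a change of 1.25, and SEMA3C, a secreted semaphorin, rose by 1.39 from a dim DMSO arm. Over days 2 and 4 alone, 7 TGF-beta and BMP genes, 10 Wnt genes and 6 axon guidance genes rose, where 699 of all 15352 genes did.

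Receptor kinases went both ways. IGF1R, the receptor for insulin-like growth factors, averaged 10.52 ± 0.55 under 552A and 9.59 ± 0.34 under DMSO, a change of 0.94 (SE 0.06, adjusted p = 3.2e-18) with arms that overlapped across days but not within a day. ALK rose by 0.74 and FGFR2 by 0.83, though 5 of 11 FGFR2 probe sets moved that way. MET, the receptor for hepatocyte growth factor, ran from 10.12 through a median of 10.37 to 10.63 under 552A and from 11.09 through 11.20 to 11.39 under DMSO, a change of -0.83. Of 19 receptor kinases 7 rose (36.8%) and 3 fell (15.8%), and of 25 immediate early genes 8 rose (32%) and 1 fell (4%). Over all genes, 12.3% rose and 8.81% fell. ZFP36L1, which promotes decay of short-lived mRNAs, rose by 1.01 with 2 of 4 probe sets moving that way.

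Cell cycle genes that were called mostly fell, by small amounts. Of 61 cell cycle genes 1 rose (1.64%, against 12.3% of all genes) and 10 fell (16.4%, against 8.81%), with a median of -0.06. After quantile normalization 17 of them fell, but falls over all genes also went from 1353 of 15352 to 2297 of 15371. At day 7, 17 fell, against 11.2% of all genes at that day. Over days 2 and 4 alone, 2 of the 61 fell, where 457 of all 15352 genes did. CCND3, cyclin D3, fell by 0.42 and GINS2, part of the replication helicase, by 0.37. MKI67, the proliferation marker Ki-67, changed by -0.38 (adjusted p = 0.042), but at day 7 by -0.84 with all arrays and by -0.21 (adjusted p = 0.68) without those of raised ACTB signal. TERT, the telomerase catalytic subunit, fell by 0.68 with arms of 8.19 to 8.85 under 552A and 8.98 to 9.40 under DMSO. CDKN1A, the CDK inhibitor p21, changed by -0.01 (adjusted p = 0.94), and MYC and MYCL by 0.22 and -0.04 (adjusted p = 0.20 and 0.81). Among 46 arrest, p53 and apoptosis genes 8 rose (17.4%, against 12.3%) and 6 fell (13%, against 8.81%), shares not far from those of all genes. After quantile normalization 12 of them fell, where falls over all genes numbered 2297. Without 552A day 2 replicate 2 or DMSO day 4 replicate 2, 5 rose, and without 552A day 2 replicate 1, 552A day 4 replicate 1, DMSO day 2 replicate 1 or DMSO day 4 replicate 2, 3 or 4 fell. Of these genes, 3 of 10 death receptor genes rose, TNFRSF10B the most, and the pro-apoptotic BIK, BAX and BAK1 fell by 0.31, 0.28 and 0.18. Without the arrays of raised ACTB signal they changed by -0.25, -0.20 and -0.17 (adjusted p = 0.10, 0.088 and 0.10), and 12, 6 and 16 of 28 alternatives ended their calls.

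Metabolic and stress lists held few large changes besides those of CYP4X1, EPAS1 and VEGFA. The shares over all genes, 12.3% that rose and 8.81% that fell, apply to each list here. Of 24 cholesterol and fatty acid genes 7 rose (29.2%) and 0 fell by limma (10 and 0 at an unadjusted p below 0.05). ACLY, which makes cytosolic acetyl-CoA, changed by 0.19 and FADS2, a desaturase, by 0.34. After quantile normalization, without 552A day 7 replicate 2 or without DMSO day 2 replicate 1, 4 of the 24 rose. Of 38 amino acid and unfolded protein stress genes 1 rose (2.63%) and 6 fell (15.8%). After quantile normalization 10 of them fell, where 2297 fell over all genes against 1353 as deposited. Among the 6 were SLC7A11, the cystine transporter, at -0.43 and MTHFD2, a mitochondrial folate enzyme, at -0.31. Of 31 hypoxia and glycolysis genes 2 rose (6.45%) and 4 fell (12.9%): VEGFA rose by 0.75, and EPAS1, the hypoxia factor HIF-2 alpha, fell by 0.82. Of 26 DNA methylation and polycomb genes 8 rose (30.8%) and 1 fell (3.85%), and DNMT3B, a DNA methyltransferase, was the member that fell, by 0.47. Of 37 cytochrome P450 and retinoid genes 3 rose (8.11%) and 1 fell (2.7%), and CYP4X1 was the only one of 4 family 4 members called.

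Called interferon genes mostly rose, and called genes of class I presentation mostly fell, the falls being called with day 7 included. Of 32 interferon genes 8 rose (25%, against 12.3%) and 1 fell. IFITM3, a membrane protein that blocks virus entry, ran from 9.77 through a median of 9.92 to 11.44 under 552A and from 8.90 through 9.20 to 9.92 under DMSO, a change of 1.01, and STING1, the sensor adaptor, rose by 0.64. Of 26 class I presentation and ligand genes 2 rose and 5 fell (19.2%, against 8.81%), at day 7 1 rose and 4 fell, and over days 2 and 4 alone 2 rose and 0 fell by limma (2 and 3 at an unadjusted p below 0.05); HLA-B changed by -0.21, PSMB10, an immunoproteasome subunit, by -0.30, and MICB, a ligand of natural killer cells, by 0.52. Without the arrays of raised ACTB signal 2 of the 26 rose and 3 fell, and HLA-B changed by -0.15 (adjusted p = 0.14). Leaving out 552A day 4 replicate 1, 552A day 7 replicate 2, DMSO day 2 replicate 1, DMSO day 4 replicate 2 or DMSO day 7 replicate 2 gave 2 or 3 that fell. Of 64 ion channel, nicotinic receptor and zinc transporter genes 13 rose (20.3%, against 12.3%) and 7 fell (10.9%, near the 8.81% of all genes). CHRNA3, a nicotinic subunit, rose by 0.63 and SCN2A, a neuronal sodium channel, by 0.64, while KCND3 and KCNMA1, potassium channels, fell by 0.57 and 0.52.

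More genes were called at later days, under a spread pooled over all lines. The 2 arrays of a group differed by a median of 0.15 (552A) and 0.18 (DMSO) at day 7. At days 2 and 4 this difference was 0.088 to 0.108. The part of this wider spread in the day 7 counts was not tested. At day 2, 378 genes were called (281 rose and 97 fell, 2.46% of those tested), at day 4, 657 (408 and 249, 4.28%), and at day 7, 4084 (2370 and 1714, 26.6%). Tested as a difference of differences, the response at day 7 differed from that at day 2 for 708 genes (4.61%), 525 of them upward and 183 downward. Of the 1895 genes that rose over the mean of the days 1777 had the same sign on each day and 216 were called on each day; of the 1353 that fell, 1255 and 57. Among the genes that rose and whose response changed, 405 grew and 2 shrank; among those that fell, 80 grew and 4 shrank. After quantile normalization the share of called genes that rose went to 46% over the mean of the days, against 58.3% as deposited, to 45.5% against 58% at day 7, and to 52.8% against 74.2% for the change between days.

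The genes that changed most between days 2 and 7 rose late, MGP and CFI from dim levels. MGP, matrix Gla protein, an inhibitor of calcification, read 4.16 and 4.35 at day 2, 4.96 and 5.33 at day 4, and 8.03 and 7.11 at day 7 under 552A. Under DMSO MGP stayed dim, at 4.28 and 4.24, then 4.43 and 4.46, then 4.48 and 4.54. Its response was 3.06 larger at day 7 than at day 2 (SE 0.25, adjusted p = 3.38e-13). THSD7B read 7.26 and 7.44, then 8.36 and 8.29, then 10.53 and 10.65 under 552A, against 6.61 and 6.85, then 6.84 and 6.53, then 6.92 and 7.47 under DMSO, a growth of 2.77 (SE 0.21, adjusted p = 2.12e-14). CFI, complement factor I, changed by -0.20, 0.18 and 2.32 at days 2, 4 and 7, and COL21A1, a fibril-associated collagen, by 0.30, 1.14 and 2.74. TP53INP1, a stress gene induced by p53, changed by -0.16, 0.40 and 1.69, and CACNA2D2, a calcium channel subunit, by -0.41, 0.56 and 1.33.

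Fewer genes turned downward with time. CALCA, the precursor of calcitonin and CGRP, read 13.50 and 13.38, then 12.91 and 13.08, then 12.11 and 11.84 under 552A, against 13.64 and 13.59, then 13.43 and 13.62, then 13.58 and 13.60 under DMSO. Its arms lay close at day 2 and far apart at day 7, and the response fell by 1.43 between them (SE 0.41, adjusted p = 0.0302). OR51E2 changed by -0.52, -0.72 and -1.99. LCN15, a lipocalin, was higher under 552A at days 2 and 4 (0.63 and 0.47) and lower at day 7 (-0.49), and C7orf57, dim in both arms, changed by 0.67, -0.08 and -1.10. CYP4X1 and IL1R1 also grew, by 1.67 and 1.36, whereas for GRP (-1.31, adjusted p = 0.0883) and LBH (0.92, adjusted p = 0.0575) the growth was not called. TMEM163, SGSM1 and ROR2 were near their day 7 change by day 2, at -1.08, -1.16 and -0.76 against -1.29, -1.01 and -0.98.

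**Figure D3:**
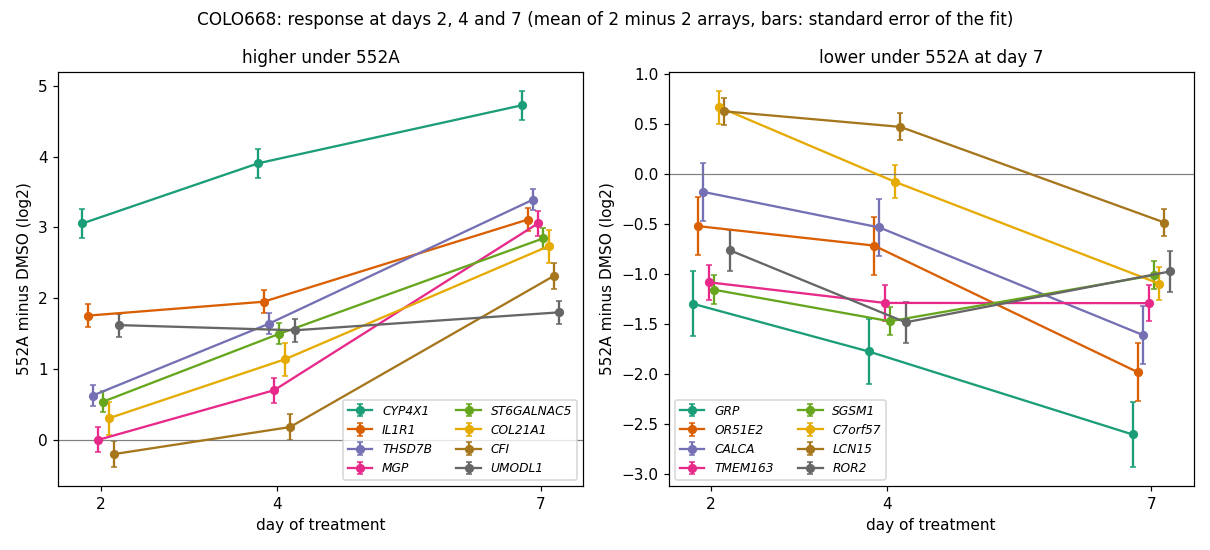
Response of 16 COLO668 genes, 552A minus DMSO on the log2 scale (vertical axis), at days 2, 4 and 7 (horizontal axis, points offset sideways for legibility); points are the difference of 2 and 2 arrays and bars the SE of the fit. MGP goes through -0.00, 0.70 and 3.06, CYP4X1 through 3.06, 3.91 and 4.73, and LCN15 changes sign.

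Day 7 was examined with and without the 2 arrays of raised ACTB signal. Both comparisons use the other day 7 arrays, so agreement between them in sign or call is partly built in. Leaving them out leaves 1 array in each arm, which is assumed to vary like the arrays of the other groups, and 2506 genes were called (1726 rose and 780 fell) against 4084 with all arrays. Of the 4084, 4074 (99.8%) kept their sign, 2108 were called in both with the same sign, and 0 were called with opposite signs. Of the 2370 rises 884 (37.3%) and of the 1714 falls 1092 (63.7%) were no longer called, and 240 rises and 158 falls were called only without those arrays. Leaving out any 1 of the day 7 arrays, which leaves 1 array in that arm, lowered the count of rises. The count of falls was also lower, except without DMSO replicate 1, a raised array, where it was higher. CYP4X1 changed by 4.44 without the 2 raised arrays and 4.73 with them, GRP by -2.51 and -2.61, MGP by 3.49 and 3.06, and THSD7B by 3.06 and 3.39. Without those arrays the 14 largest rises changed by 1.42 to 4.44 at day 7, and the 14 largest falls by -2.51 to -0.83. These genes were picked on a mean that includes all arrays. Of the 160 named genes called at day 7, 122 were called without those arrays. The change between days 2 and 7 was called for 825 genes without them, 453 of which were also called with them in the same direction, and among the 8 genes named for it OR51E2 and CALCA were no longer called (adjusted p = 0.0567 and 0.119). The raised signal occurred on 1 array of each arm at day 7, and its part in the day 7 counts beyond this comparison was not tested.

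**Figure D4:**
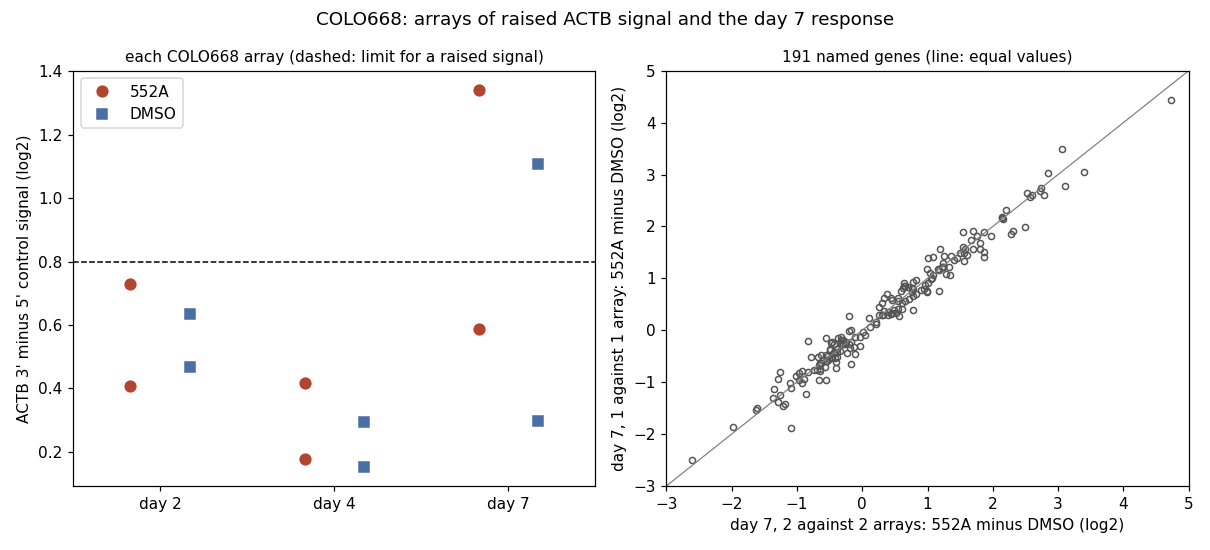
Left, the ACTB 3' minus 5' control signal (log2) of each COLO668 array by day, with 552A left of DMSO and the limit of 0.8 dashed; right, the day 7 response of 191 named genes with all arrays (horizontal) and without the 2 arrays above the limit (vertical). A single array of each arm at day 7, at 1.34 for 552A and 1.11 for DMSO, exceeds the limit, and the points follow the line of equal values. The values on the 2 axes share 1 array of each arm, so they are not independent.

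The COLO668 response was last set against the mean response of the other 5 time course lines. It differed for 2336 genes (15.2%); this test holds the spread between arrays and not that between lines, so each line's response is given as well. In COLO668, 987 genes rose by more than in any of the 5 with a called difference, and 628 fell by more. Of the genes that rose in COLO668, 777 rose in none of the 5 at the same threshold, and of those that fell, 737 fell in none. The genes that rose in COLO668 shared 632 with NCI-H510 (33.4% of COLO668's and 47.9% of NCI-H510's), 575 with NCI-H526 (30.3% and 35.1%), 269 with NCI-H146 (14.2% and 41.1%), 213 with NCI-H446 (11.2% and 32.2%) and 184 with SHP-77 (9.71% and 31%). For the genes that fell the shares were 327 with NCI-H510 (24.2% and 33.1%), 325 with NCI-H526 (24% and 20.2%), 105 with SHP-77 (7.76% and 16%), 98 with NCI-H146 (7.24% and 30.1%) and 39 with NCI-H446 (2.88% and 19.8%). Other genes were called with opposite signs: of those that rose in COLO668, 63 fell in NCI-H510, 156 in NCI-H526, 53 in NCI-H146, 39 in NCI-H446 and 107 in SHP-77. Of those that fell in COLO668, 37 rose in NCI-H510, 87 in NCI-H526, 64 in SHP-77, 33 in NCI-H146 and 50 in NCI-H446. Over all 15352 tested genes, 1320 rose and 988 fell in NCI-H510, and 1636 and 1609 in NCI-H526. In NCI-H146 655 rose and 326 fell, in SHP-77 594 and 655, and in NCI-H446 661 and only 197. The 39 falls shared with NCI-H446 were 19.8% of its 197 falls. In COLO668 12.3% of all tested genes rose and 8.81% fell, the shares to set beside each second percentage. Whether the shared or opposite counts lie apart from these shares was not tested.

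CYP4X1 differed most, by 3.62 (SE 0.13): it changed by 3.90 in COLO668 and by 0.05, 0.05, 0.62, 0.72 and -0.05 in SHP-77, NCI-H526, NCI-H510, NCI-H146 and NCI-H446. SLC44A5 changed by 2.28 in COLO668 and by -0.09 to 0.40 in the 5 lines, and IL1R1 by 2.27 and by 0.05 to 0.92. LBH changed by 2.41 in COLO668 and by 2.40 in NCI-H510, a gap smaller than the SE, and by 1.58 in NCI-H146, while SHP-77, NCI-H526 and NCI-H446 changed by 0.07, -0.53 and 0.34. TNR, tenascin-R of the neural matrix, changed by 1.61 in COLO668, where it ran above DMSO on every array, and by -0.25 to 0.49 in the 5 lines; 2 of 3 TNR probe sets moved that way. TMEM163 went against NCI-H526: it changed by -1.22 in COLO668, by 2.52 in NCI-H526 and by -0.51 to -0.02 in the other 4. GRP changed by -1.89 in COLO668, -1.29 in NCI-H510 and -1.10 in NCI-H146, and TFF1, LAMA1, HSD17B2, LRRC31 and LAT2 changed by -1.12 to -1.0 in COLO668 and by -0.14 to 0.40 in the 5. SCN2A changed by 0.64 in COLO668 and by -0.77, -2.13 and -0.70 in SHP-77, NCI-H510 and NCI-H146. VIM changed by 0.60 in COLO668 and by 2.51, 2.08 and 1.33 in NCI-H510, NCI-H146 and NCI-H446, so that its response was 0.69 below the mean of the 5 (adjusted p = 2.30e-06), and ZEB1, at 1.25, lay between 3.14 in NCI-H526 and -0.16 in SHP-77.

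**Figure D5:**
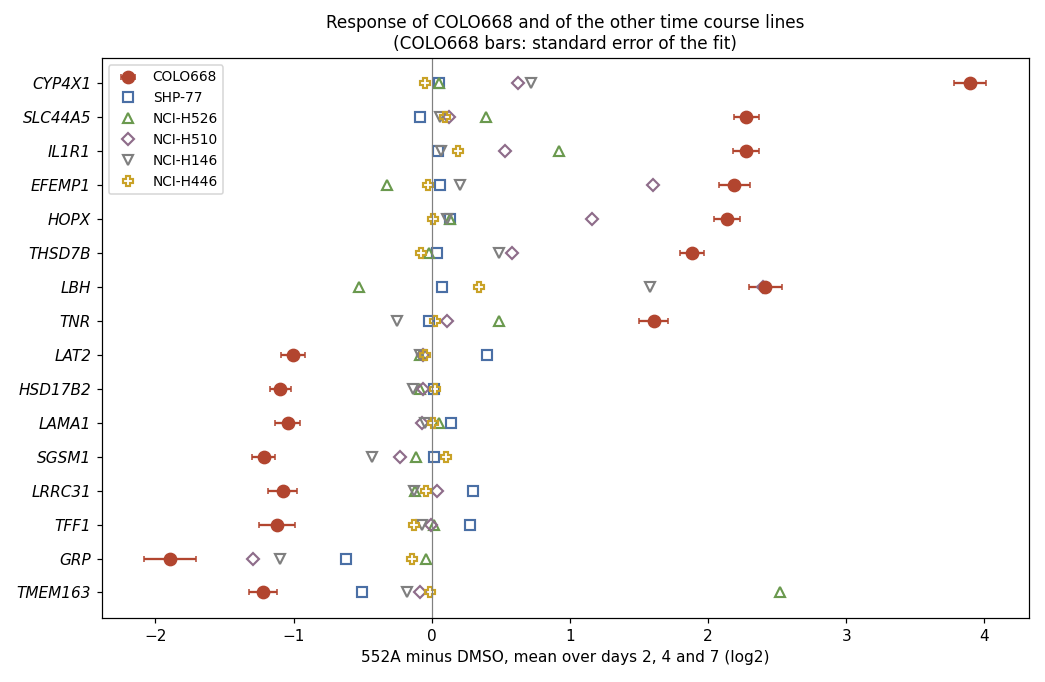
Change under 552A averaged over days 2, 4 and 7 (log2, horizontal axis) of 16 genes in COLO668 (filled circles, bars SE of the fit) and in 5 other lines (open symbols). All 16 were picked because COLO668 lies outside the range of the other lines, so its standing apart here is built in. It lies closest to them for LBH, where NCI-H510 reaches 2.40 against 2.41.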

How the data were processed

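The authors deposited log2 expression values per probe set of the Affymetrix HGU133 Plus 2.0 array, from total RNA labelled with biotin per the labels; how they were background-corrected and scaled is not given in the sources used here. They were used as deposited. Of 54675 probe sets, 41091 had 1 gene symbol in the platform annotation, 1801 several, 11721 none, and 62 were controls. Probe sets with 1 symbol and a group mean above the median of all values, 7.41, were kept, and each gene was read from its brightest probe set, with _x_at probe sets used only where a gene had no other, which gave 15352 tested genes.

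The package limma 3.58.1 (R 4.3.3, functions lmFit and eBayes) gave two-sided tests (42 group means over 88 arrays, 46 residual and 6.52 prior degrees of freedom, Benjamini-Hochberg adjustment). The code was tested on simulated data. Figures and promoter searches used Python, pandas, numpy and matplotlib. Arrays carry no depth, so their number sets the precision.

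Members, the 24 gene lists and the tests were chosen with earlier results of these data known. Named genes were 191 in all. They were the 14 per direction of largest change among those called and of 1 sign on all days. To these came 4 per direction for the change between days 2 and 7, and 8 per direction for the difference from other lines. Those 8 were called in COLO668 and lay outside the range of the 5 other lines. The rest were up to 5 per direction in each list, and fixed regulators. Alternatives were quantile normalization, other filters, the mean of all probe sets, COLO668 or the 6 time course lines alone, an intensity trend, robust variance, the replicate block, the ACTB signal as covariate, arrays left out and single days; days 2 and 4 alone and the lists' counts under each alternative were added after seeing the data.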

Additional observations from a re-analysis of the deposited data

Results flagged for a closer look

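The size of the 552A response in COLO668 depended on the day for 708 genes, by the test of the difference between days 7 and 2. MGP, THSD7B, CFI and COL21A1 grew most, by 3.06, 2.77, 2.52 and 2.43 on the log2 scale. C7orf57, OR51E2, CALCA and LCN15 turned downward most, by -1.77, -1.46, -1.43 and -1.11.

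The response differed from the mean of the other 5 time course lines for 2336 genes. The largest positive differences outside the range of those lines were 3.62 for CYP4X1, 2.16 for SLC44A5, 1.92 for IL1R1, 1.88 for EFEMP1, 1.83 for HOPX, 1.68 for THSD7B, 1.64 for LBH and 1.54 for TNR. The largest negative ones were -1.57 for TMEM163, -1.26 for GRP, -1.14 for TFF1, -1.09 for LRRC31, -1.08 for SGSM1, -1.06 for LAMA1, -1.05 for HSD17B2 and -1.03 for LAT2.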

How the results depend on the processing

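Counts of called genes moved by over 1.5 times under these settings. Over the mean of the days, 1156 genes were called on days 2 and 4 alone, which uses 8 arrays, against 3248. With COLO668 arrays alone, the spread comes from fewer arrays and from this line only. Then 177 were called at day 2 (against 378), 384 at day 4 (657), 2700 at day 7 (4084) and 124 for the change between days 2 and 7 (708). Without the COLO668 arrays of raised ACTB signal, day 7 had 2506. The change between days had 1416 after quantile normalization, 461 with the mean of all probe sets, and 1206 without all 5 raised arrays of the series.

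Leaving out 1 COLO668 array at a time gave 2498 to 3408 over the mean of the days, 177 to 424 at day 2, 355 to 689 at day 4, 2582 to 4085 at day 7, 276 to 1505 for the change between days, and 1714 to 2702 for the difference from other lines. The arrays that moved a count by over 1.5 times were, at day 2, DMSO replicate 1 (177) and 552A replicates 1 and 2 (184 and 193); at day 4, 552A replicates 1 and 2 (355 and 403) and DMSO replicates 1 and 2 (432 and 356); and at day 7, 552A replicate 2 (2582). For the change between days they were 552A day 2 replicates 1 and 2 (276 and 450), DMSO day 2 replicates 1 and 2 (423 and 315) and DMSO day 7 replicates 1 and 2 (1505 and 440). The cause was not tested.

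The replicate block gave 3650 over the mean of the days, 497, 777 and 4531 at days 2, 4 and 7, 1015 for the change between days and 2578 for the difference. Deviations of same-numbered arrays correlated at 0.16, 0.49 and -0.40 at days 2, 4 and 7. The sign differed between days, and whether same-numbered arrays belong together was not tested.

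Of the 191 named genes, 52 kept their direction and side of the threshold in every alternative, and 17 changed sign in at least 1. The direction of a called mean-over-days change reversed at day 2 alone for MGP (-0.0015), CFI (-0.20), TP53INP1 (-0.16), BMF (-0.032), CACNA2D2 (-0.41), KCND2 (0.052), SLC18A2 (-0.13), KDR (-0.22), CD3D (0.055) and PTPN14 (-0.056), and on days 2 and 4 alone for CFI (-0.011) and SLC18A2 (-0.043). Among named genes not called over the days, the sign also turned for C7orf57 (0.67), REST (-0.14) and YAP1 (-0.025) at day 2 alone, for MYCN (0.059) and CDKN1A (0.11) at day 4 alone, and for LCN15 (-0.49) and POU2F3 (0.041) at day 7 alone. Cell cycle genes that fell numbered 17 after quantile normalization, against 10 as deposited, while falls over all genes numbered 2297 against 1353. Signal near background limits dim genes.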
